A study of Mus musculus with 13 samples.

Results

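The 10 genes described here act in creatine cycling, in calcium cycling across the sarcoplasmic and endoplasmic reticulum, or in the making of N-acyl amino acids. They were chosen by name as Ckb, Ckmt2, Gatm, Gamt, Slc6a8, Alpl, Atp2a2, Ryr2, Sln and Pm20d1, and each maps to 1 row of a count table of 34419 genes. RNA was sequenced from gluteal white adipose tissue (WAT), a subcutaneous fat depot over the hindquarters, of C57BL/6J mice, which the study's methods give as male. The animals were kept for their whole life, 13 weeks, in chambers at 22°C (n = 7) or at 29°C (n = 6), the latter being close to thermoneutral for a mouse, with 1 library per animal. Mice of both groups lost their posterior hair after weaning and were housed singly with little bedding and no nesting material, and no group that kept its hair is compared here. The comparison asks how lifelong housing at a cooler temperature changes expression in white fat.

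Futile cycles release heat by spending ATP without net work. In the creatine cycle, creatine kinase moves phosphate from ATP to creatine and a phosphatase removes it again, so that creatine returns for another round. In the calcium cycle, SERCA pumps move calcium into the reticulum and release channels let it back out. Both sets of genes are also core genes of muscle, where phosphocreatine buffers ATP and SERCA and ryanodine receptors drive contraction, so each member is set beside Acta1, the skeletal muscle actin gene, in the same library.

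Libraries held 22356637 to 25245785 counts over genes, so a limit of 3 counts equals 0.119 to 0.134 CPM, the counts of a gene per 1000000 counts of its library. The median total was 22730519 at 22°C and 25131359.5 at 29°C, and 2 libraries at 22°C and all 6 at 29°C lay in the higher of 2 clusters of totals. White adipocyte markers were abundant throughout, with a summed level of 5 genes between 9181 and 14110 CPM in the cooler group and between 11990 and 14310 CPM in the warmer one. The 15 genes listed as fast muscle fibre markers, Acta1 and Mb among them, took 0.068% to 5.65% of counts at 22°C and 0.0166% to 0.588% at 29°C. In whole tissue, fewer cells of a type and less RNA per cell cannot be told apart.

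Acta1 spanned 173 to 14940 CPM at 22°C, with a median of 1312 CPM. At 29°C it ran from 71.9 to 1581 CPM, with a median of 395 CPM. Replicates 1 and 7 at 22°C stood highest, and 3 of the 7 libraries at 22°C were above all of those at 29°C, while the rest overlapped. The difference in mean log2 CPM was 2.14 ± 1.34 (SE), and a two-sided exact permutation test gave p = 0.152. The edgeR fit used for the members below gave Acta1 a log2 fold change of 2.93 ± 1.23 (unadjusted p = 0.0319, adjusted p = 0.227, quasi-likelihood test). That second value is the one to set beside the fold changes of the members. The SD between mice was 2.78 log2 units at 22°C and 2.05 at 29°C.

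No member changed with housing temperature at an adjusted p (P-adj) below 0.1 in edgeR's quasi-likelihood test with Benjamini-Hochberg adjustment over the 17779 genes tested. Of all these genes, 345 passed, which is 1.94%, with 0.731% higher and 1.21% lower at 22°C. Ryr2 was too low to be tested, so the test covered 9 of the 10 members. At an unadjusted p below 0.05 stood Ckb, Ckmt2, Slc6a8 and Alpl, with higher values at 22°C, and Gamt, with a lower value, which makes 5 of 9 against 18.5% of all genes. Fold changes were above 0 for 6 of the 9, against 51.6% of all genes, with a median of 0.29 on the log2 scale beside a median of 0.0074 over all genes. In DESeq2, the other count test run, Ckb, Gamt and Slc6a8 passed, with P-adj of 0.057, 0.0622 and 0.0688. These were 3 of 10 members, in a fit that called 1676 of the 34419 genes in the table. The 34419 can include genes to which DESeq2 gives no P-adj. A share of tested genes to set beside 3 of 10 is therefore not given. None of the 10 had groups of libraries without overlap, which 1.24% of all genes tested had.

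**Figure D1:**
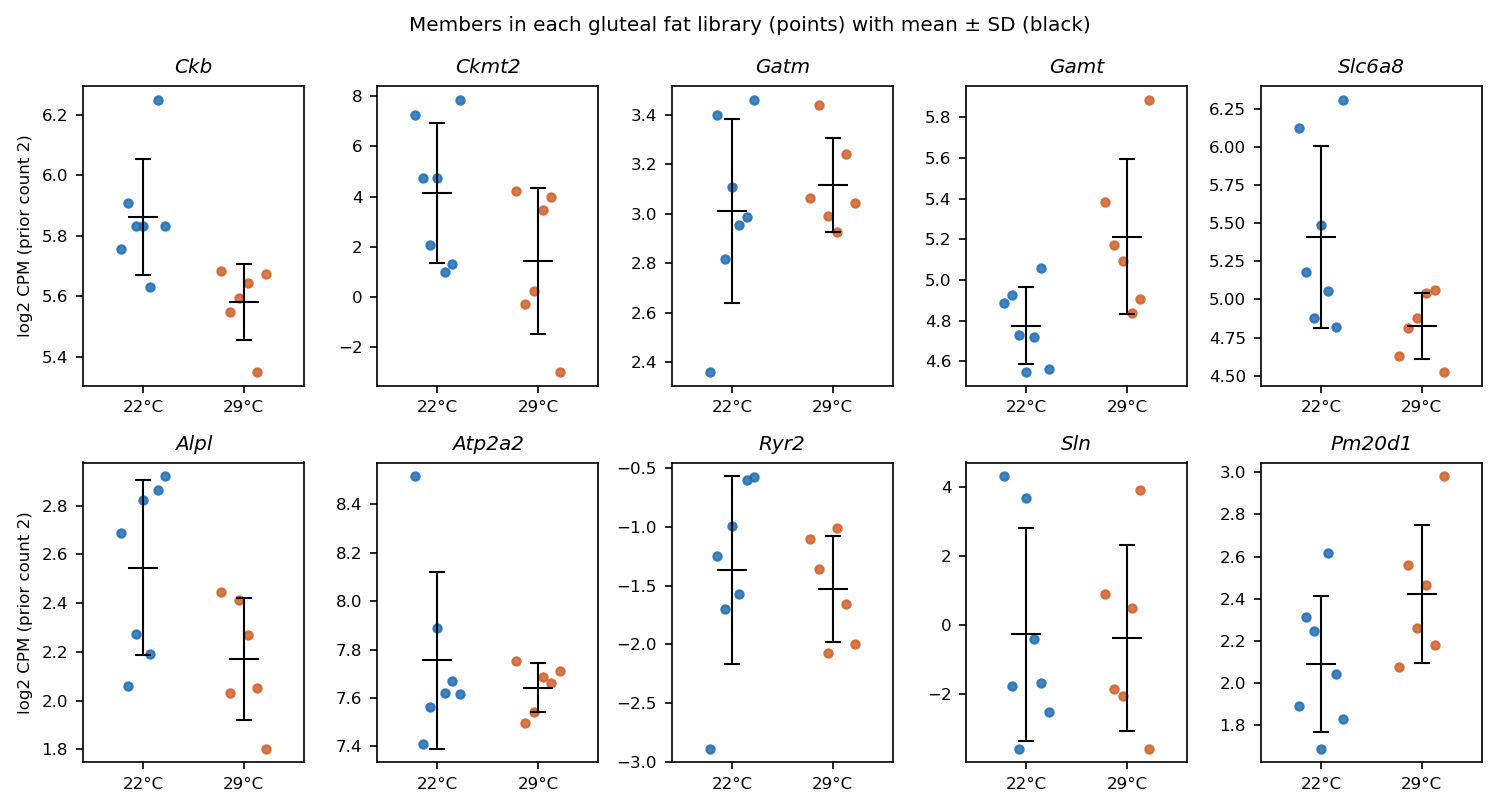
Level of each of the 10 members on the log2 CPM scale (vertical axis, prior count 2) in each library at 22°C (blue, n = 7) and 29°C (orange, n = 6), with the mean and SD in black. Each panel has its own scale: Ckb differs between groups over less than 1 log2 unit, while Ckmt2 and Sln range over more than 7 units within both groups together.

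Levels per kilobase of exon set the members apart by abundance. Atp2a2 stood at 34.9 ± 8.08 CPM per kb (SD, n = 13), above Gamt at 22.5 ± 6.57 and Ckb at 18.5 ± 2.93 CPM per kb, which could not be ordered beyond their spread. Ckmt2 had no fixed place in this order. Its mean was 43.0 ± 61.8 CPM per kb at 22°C, where Atp2a2 had 36.6 ± 10.9, and 5.25 ± 5.55 at 29°C, and its median over the 13 libraries, 7.30 CPM per kb, was below those of Gamt and Ckb, at 20.7 and 17.7. Slc6a8 reached 7.26 ± 3.32 CPM per kb, and Sln and Gatm, at 3.06 ± 5.28 and 2.80 ± 0.547 CPM per kb, could not be ordered either. Alpl had 1.30 ± 0.335, Pm20d1 0.681 ± 0.180 and Ryr2 0.011 ± 0.0055 CPM per kb. Acta1 stood at 1905 ± 3339 CPM per kb on the same scale. The spread was very uneven, since the highest library exceeded the lowest 5554-fold for Ckmt2, where the lowest rests on 1 count, but 1.87-fold for Ckb and 2.15-fold for Atp2a2.

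Gatm encodes the amidinotransferase that makes guanidinoacetate, the precursor of creatine. It ranged from 5.05 to 10.9 CPM at 22°C (median 7.84) and from 7.51 to 10.7 CPM at 29°C (median 8.21). The groups overlapped almost wholly, and the lowest library was 22°C replicate 1, one of the pair richest in Acta1. Its change between temperatures, -0.08 ± 0.16 (SE) on the log2 scale, was within the error (P-adj = 0.835, edgeR).

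Gamt encodes the methyltransferase that completes creatine synthesis from guanidinoacetate. It ran from 23.3 to 33.3 CPM at 22°C (median 26.5) and from 28.5 to 59.0 CPM at 29°C (median 35.0). Of the libraries at 22°C, 4 lay below every one at 29°C, and 4 of the 6 at 29°C lay above every one at 22°C, with 29°C replicate 6 far above the others. The log2 fold change was -0.47 ± 0.16 (P-adj = 0.162, edgeR). Without 29°C replicate 6 the fold change was -0.31. The median of each of the 2 genes of creatine synthesis was higher at 29°C, but the change of Gatm was within its error. Neither gene passed the edgeR test.

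Slc6a8 encodes the creatine transporter that brings creatine into cells. It spanned 28.1 to 79.3 CPM at 22°C (median 36.1) and 22.9 to 33.3 CPM at 29°C (median 28.6). The top of the range at 22°C belonged to replicates 7 and 1, the pair richest in Acta1, and 4 of 7 libraries at 22°C were above all at 29°C. The log2 fold change was 0.68 ± 0.24 (P-adj = 0.184, edgeR), and it fell to 0.26 ± 0.14 without that pair.

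Ckb encodes the cytosolic brain-type creatine kinase, the kinase of many tissues outside muscle. It lay between 49.5 and 76.0 CPM at 22°C (median 56.9) and between 40.7 and 51.3 CPM at 29°C (median 49.1). All but 1 of the 7 libraries at 22°C exceeded every library at 29°C, the exception being replicate 5, and replicate 6 was the highest. The log2 fold change was 0.29 ± 0.09 (P-adj = 0.147, edgeR), the smallest P-adj among the members. Leaving out each library in turn kept the fold change between 0.22 and 0.33, and P-adj between 0.119 and 0.266.

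Ckmt2 encodes the sarcomeric mitochondrial creatine kinase, the mitochondrial form of striated muscle. It ranged from 1.90 to 233 CPM at 22°C (median 26.4) and from 0.042 to 18.5 CPM at 29°C (median 5.97). Replicates 7 and 1 at 22°C, at 233 and 152 CPM, were far above every other library, and 3 of 7 at 22°C lay within the range at 29°C. The log2 fold change was 3.03 ± 1.29 (P-adj = 0.234, edgeR), the largest of the members in size and, beside Sln, the least precise. Without those 2 libraries it was 0.66 ± 1.08.

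Alpl encodes tissue-nonspecific alkaline phosphatase, which can hydrolyse phosphocreatine as well as pyrophosphate and other phosphate esters. It lay from 4.09 to 7.49 CPM at 22°C (median 6.37) and from 3.40 to 5.36 CPM at 29°C (median 4.40). At 22°C, 4 of 7 libraries were above all at 29°C, and the other 3 fell among them. The log2 fold change was 0.40 ± 0.17 (P-adj = 0.236, edgeR).

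Atp2a2 encodes SERCA2, the calcium pump of slow muscle, heart and most other tissues. It ran from 170 to 366 CPM at 22°C (median 197) and from 181 to 216 CPM at 29°C (median 204). The medians were close, and only replicates 1 and 4 at 22°C were above the range at 29°C. The log2 fold change was 0.15 ± 0.15 (P-adj = 0.632, edgeR), and without 22°C replicate 1 it was -0.0095. The summed level of 6 slow muscle fibre markers was also highest in 22°C replicates 1 and 4, at 1073 and 403 CPM, against at most 76.8 CPM elsewhere. In 22°C replicate 2, which had the lowest Atp2a2, it was 54.2 CPM. The part of slow fibres in the level of Atp2a2 was not tested.

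Ryr2 encodes the cardiac-type ryanodine receptor, a calcium release channel. It had 1 to 15 counts per library at 22°C (median 8) and 4 to 11 counts at 29°C (median 7), and the groups overlapped. The single count was in 22°C replicate 1, the library with the most Acta1. Fitted without a filter on low counts, its log2 fold change was 0.34 ± 0.42 (P-adj = 0.732, edgeR).

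Sln encodes sarcolipin, a small membrane protein that binds SERCA and uncouples ATP hydrolysis from calcium transport. Its level was uneven in both groups, from 0 to 19.8 CPM at 22°C (median 0.231) and from 0 to 15.1 CPM at 29°C (median 0.753). Counts above 300 occurred in 3 libraries, with 377 in 22°C replicate 1, 307 in 22°C replicate 4 and 386 in 29°C replicate 5, and the other 10 libraries held 0 to 46. The 2 libraries at 0, 22°C replicate 3 and 29°C replicate 6, allow up to 3 counts. The groups overlapped, at a difference of 0.64 ± 1.44 on the log2 scale (P-adj = 0.846, edgeR). Without 29°C replicate 5 it was 2.80, at a P-adj that still missed the threshold.

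Pm20d1 encodes a secreted enzyme that makes and hydrolyses N-acyl amino acids, lipids that can uncouple mitochondria. It spanned 3.14 to 6.05 CPM at 22°C (median 4.04) and 4.14 to 7.82 CPM at 29°C (median 5.08). Of the libraries at 22°C, 4 lay below every one at 29°C, and 29°C replicate 6 was the highest of all 13. The log2 fold change was -0.34 ± 0.18 (P-adj = 0.341, edgeR).

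The members were next set against Acta1 in a fit with 1 term for temperature and 1 for the log2 CPM of Acta1. The slope of a gene is the change in its log2 count per log2 unit of Acta1, so a gene that follows Acta1 in proportion has a slope of 1. Slopes passed for 4 of 9 members, 3 positive and 1 negative, against 8.53% of the 17778 genes tested (6.69% positive and 1.84% negative). Slopes above 0 were found for 6 of 9 members and for 47.7% of all genes, with medians of 0.061 and -0.0024. In the 8 libraries of the higher cluster of totals, only the slope of Ckmt2 passed, at P-adj = 0.00165 in edgeR.

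**Figure D2:**
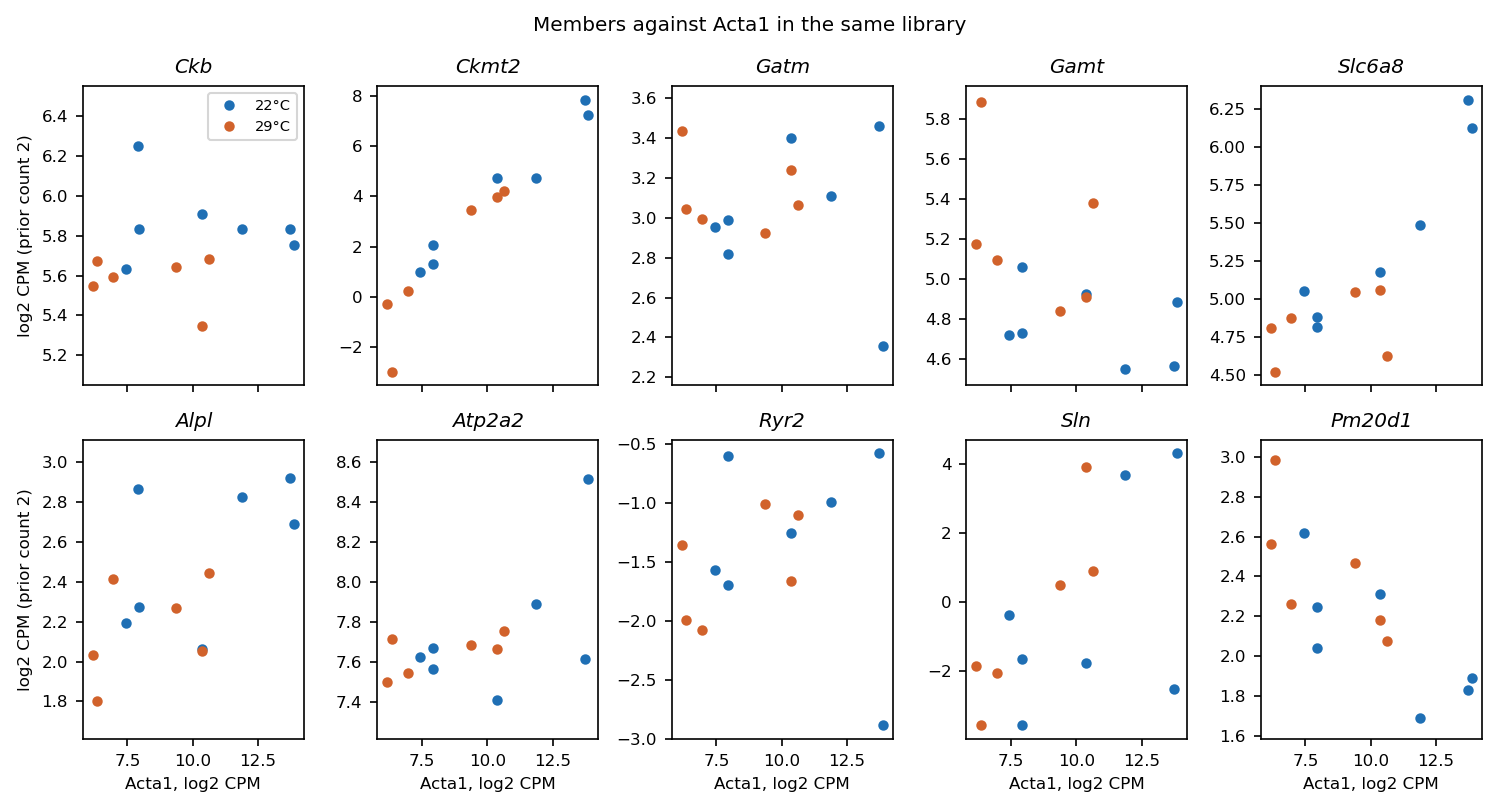
Level of each member against that of Acta1 in the same library, both on the log2 CPM scale (prior count 2), at 22°C (blue, n = 7) and 29°C (orange, n = 6). Ckmt2 climbs with Acta1 over the whole range, Slc6a8 climbs mainly in the libraries richest in Acta1, Pm20d1 declines, and Ckb and Gatm show no trend.

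Ckmt2 rose in proportion to Acta1, with a slope of 1.04 ± 0.08 (P-adj = 5.35e-07, edgeR). Over the 13 libraries Pearson's r of log2 CPM was 0.958 and Spearman's rho 0.973, each with a permutation p of 1e-05, the smallest that 100000 permutations can give, and P-adj = 0.0001 over the 10 members, where these correlations were called at P-adj below 0.05. Without the 2 libraries farthest from the median of Acta1, replicates 1 and 7 at 22°C, r was 0.926. Within 22°C r was 0.981 (exact permutation p = 0.000992, P-adj = 0.00992), and within 29°C it was 0.934 (exact permutation p = 0.0222, P-adj = 0.153).

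In raw counts, 12 libraries held 7.15 to 20.1 counts of Ckmt2 for every 1000 counts of Acta1, while Acta1 itself spanned a 208-fold range of CPM over the 13 libraries. The ratio still varied beyond counting error, with exact 95% intervals of 6.60 to 7.72 in 22°C replicate 4 and 18.6 to 21.8 in 22°C replicate 2. The remaining library, 29°C replicate 6, held 1 count of Ckmt2 beside 1926 of Acta1, a ratio of 0.519 per 1000 with an exact 95% interval from 0.0131 to 2.90 that covers counting error only. Ckm, the cytosolic muscle creatine kinase, was also nearly missing from that library, at 5.71 per 1000 counts of Acta1 against 239 to 628 in the other 12. Acta1 in that library was therefore not accompanied by the 2 muscle kinases at the ratio found elsewhere. Most other genes of the fast fibre list were also nearly missing there, with 18 counts of Myh4, 8 of Mylpf and 7 of Tnni2. Myl1 and Mb went the other way, at 1429 and 561 counts. Acta1 is thus a weak measure of fast fibre RNA in that library, a limit for all values fitted on Acta1.

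The sequences around the start sites of Ckmt2, of Acta1, which it follows, and of Ckb, a kinase with no such relation, are shown for comparison. They come from RefSeq on GRCm38.p6, and run from 250 bases before to 50 bases after the start, in the direction of the gene. RefSeq promoters were matched for 6 of the 10 members. Ckmt2 lies at chr13:91876836-91877135 on the minus strand, Acta1 at chr8:123894726-123895025 on the minus strand and Ckb at chr12:111672289-111672588 on the minus strand. Capitals mark matches to the E-box (CANNTG), the TATA box (TATAAA, on the strand of the gene), the CArG box and the MEF2 motif.
Ckmt2: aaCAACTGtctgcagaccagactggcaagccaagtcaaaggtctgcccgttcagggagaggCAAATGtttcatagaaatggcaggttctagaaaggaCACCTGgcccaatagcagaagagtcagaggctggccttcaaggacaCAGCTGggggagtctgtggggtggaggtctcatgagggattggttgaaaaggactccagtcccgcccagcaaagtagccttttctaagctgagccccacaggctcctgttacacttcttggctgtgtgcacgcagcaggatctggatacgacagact
Acta1: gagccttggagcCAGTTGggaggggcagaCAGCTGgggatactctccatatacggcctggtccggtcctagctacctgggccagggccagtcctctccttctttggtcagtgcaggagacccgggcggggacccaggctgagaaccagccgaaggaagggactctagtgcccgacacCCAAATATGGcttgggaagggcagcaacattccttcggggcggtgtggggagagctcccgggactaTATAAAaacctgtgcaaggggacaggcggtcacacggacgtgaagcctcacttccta
Ckb: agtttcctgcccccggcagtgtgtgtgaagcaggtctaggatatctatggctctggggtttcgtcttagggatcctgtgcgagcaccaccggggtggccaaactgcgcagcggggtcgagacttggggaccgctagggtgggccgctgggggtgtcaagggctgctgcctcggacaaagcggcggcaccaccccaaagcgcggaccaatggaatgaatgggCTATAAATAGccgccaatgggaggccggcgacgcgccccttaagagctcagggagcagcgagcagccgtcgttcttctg

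Both strands were searched for the E-box, the CArG box and the MEF2 motif. The Ckmt2 window holds 4 E-boxes and none of the other motifs, and the Acta1 window holds 2 E-boxes, 1 CArG box and 1 TATA box. The Ckb window holds no E-box, and its MEF2 match overlaps its TATA box. Among 32851 promoters of the same length, 72.3% hold an E-box, 8.32% a TATA box, 3.19% a MEF2 match and 1.63% a CArG box, so most promoters hold an E-box. A match is a match of letters and does not show binding.

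Sln also rose with Acta1, at a slope of 1.08 ± 0.26 (P-adj = 0.0242, edgeR), but the libraries scattered widely about it. In the libraries with higher totals alone the slope was 0.95 ± 0.42 (P-adj = 0.594, edgeR), so the call was lost there. Its r with Acta1 over the 13 libraries was 0.588 (permutation p = 0.0357, P-adj = 0.0595), rho was 0.572, and r was 0.771 without replicates 1 and 7 at 22°C. Per 1000 counts of Acta1, Sln had 11.5 in 29°C replicate 5 and 0.00667 in 22°C replicate 7, the latter from 2 counts with an exact 95% interval of 0.000808 to 0.0241. Replicate 7 and replicate 1 at 22°C had nearly equal Acta1, at 299648 and 283999 counts, but 2 and 377 counts of Sln. Within 22°C r was 0.513 (exact permutation p = 0.258), and within 29°C it was 0.887 (exact permutation p = 0.0306, P-adj = 0.153).

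Slow muscle fibre genes were compared with Sln because sarcolipin is known from slow fibres and atria. The 6 slow fibre markers summed to 1073 CPM in 22°C replicate 1 and 403 CPM in 22°C replicate 4, both rich in Sln, and to 76.8 CPM in 22°C replicate 7, which had little. In 29°C replicate 5, the third library rich in Sln, they summed to 3.20 CPM, within the range of 1.22 to 30.4 CPM at 29°C. There Myh7, the slow myosin heavy chain, and Myl2 were at 0, but Tnni1 and Tnnt1, slow troponins, had 27 and 23 counts, more than in every other library at 29°C except replicate 1. The 4 heart markers summed to 1.22 to 6.997 CPM at 22°C and 0.883 to 2.03 CPM at 29°C. Of these, Tnnt2, cardiac troponin T, was highest in the 3 libraries rich in Sln, at 51, 36 and 23 counts against at most 13 elsewhere. Myh6, the atrial myosin heavy chain, had 69 and 35 counts in 22°C replicates 1 and 4 and 3 in 29°C replicate 5. Tnni3, the only heart marker high enough to be tested, had a slope of -0.05 ± 0.07 on Acta1 (P-adj = 0.756, edgeR). The single genes named here were picked from their lists after their values were seen, and others of the lists are not given. The part of slow fibres or heart-type genes in the level of Sln was not tested.

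Slc6a8 had a shallow but called slope of 0.16 ± 0.03 (P-adj = 0.00636, edgeR). Its r with Acta1 was 0.846 (permutation p = 0.00036, P-adj = 0.0018) and rho was 0.736. Without replicates 1 and 7 at 22°C, r was 0.627 (P-adj = 0.0944) and the slope was 0.08 ± 0.03 (P-adj = 0.464, edgeR), so the call rested on those libraries. Within 22°C r was 0.948 (exact permutation p = 0.00218, P-adj = 0.0109), and within 29°C, where Acta1 reached only 1581 CPM, it was 0.368 (exact permutation p = 0.442). An interaction fit gave slopes that differed by 0.16 ± 0.05 between temperatures (P-adj = 0.509, edgeR), a test that 0.0225% of genes passed and no member did.

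Pm20d1 fell as Acta1 rose, with a slope of -0.10 ± 0.03 (P-adj = 0.0759, edgeR). Its r was -0.780 (permutation p = 0.00154, P-adj = 0.00513), rho was -0.802, and r without the 2 libraries richest in Acta1 was -0.723. Within 22°C and within 29°C r was -0.742 and -0.722, with exact permutation p of 0.0651 and 0.0889. The slope was called in 5 of the 13 fits that left out 1 library, and not without a filter on low counts (P-adj = 0.133, edgeR). The 5 white adipocyte markers also had slopes below 0, with a median of -0.055 and none called, and their mean log2 CPM had an r of -0.805 with Acta1. Their part in the decline of Pm20d1 was not tested.

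The slopes of the other 5 tested members missed the threshold. Atp2a2 had a slope of 0.07 ± 0.03 and Alpl of 0.06 ± 0.03 (P-adj = 0.198 and 0.376, edgeR). Their r with Acta1, 0.573 and 0.613, had permutation p of 0.0262 and 0.0275 and P-adj = 0.0551 for each. Atp2a2 spanned a 2.15-fold range while Acta1 spanned 208-fold. Ckb, Gatm and Gamt had slopes of -0.02 ± 0.02, 0.0034 ± 0.036 and -0.04 ± 0.03, with P-adj of 0.713, 0.977 and 0.530 in edgeR, and r of 0.137, -0.118 and -0.514. Ryr2, which was not tested in the fit, had an r of 0.056.

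At equal Acta1, no member differed between temperatures at P-adj below 0.1, a mark that 0.472% of all genes passed, 0.214% higher and 0.259% lower at 22°C. At an unadjusted p below 0.05 stood 2 of 9 members, against 12.4% of all genes, namely Ckb and Gamt. Ckb kept its size, at 0.33 ± 0.10 on the log2 scale (P-adj = 0.207, edgeR), and with DESeq2 its P-adj was 0.089. Gamt was at -0.37 ± 0.17 (P-adj = 0.391, edgeR). Ckmt2 went from 3.03 to 0.18 ± 0.35 (P-adj = 0.878, edgeR) and Slc6a8 from 0.68 to 0.24 ± 0.16 (P-adj = 0.589, edgeR), so their differences between temperatures were smaller once Acta1 was in the fit. Alpl stood at 0.27 ± 0.17, Pm20d1 at -0.13 ± 0.15, Atp2a2 at -0.0092 ± 0.14, Gatm at -0.08 ± 0.18 and Sln at -1.62 ± 1.1. Equal Acta1 need not mean equal slow fibre RNA. The 6 slow muscle fibre markers were higher at 22°C by 3.86 to 6.01 on the log2 scale, with none called. At equal Acta1 they stood at 1.09 to 2.81, again with none called (lowest P-adj = 0.308, edgeR).

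**Figure D3:**
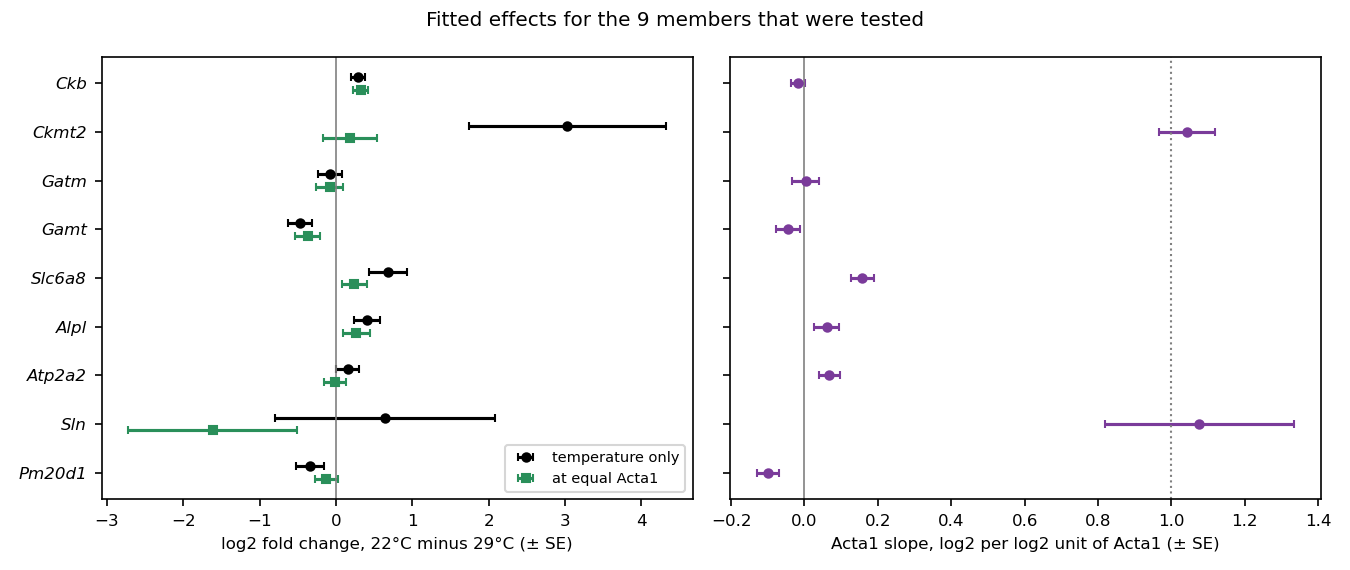
Left, log2 fold change between 22°C and 29°C (positive is higher at 22°C) with its SE for the 9 members tested, by temperature alone (black) and at equal Acta1 (green). Right, slope on Acta1 with its SE, where the dotted line at 1 marks proportion to Acta1. Ckmt2 goes from 3.03 to 0.18 once Acta1 is in the fit, while Ckb stays at 0.29 and 0.33, and only Ckmt2 and Sln have slopes near 1.

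A list of 40 other genes of the same pathways gives the setting, and 35 of them were tested. The list was chosen with earlier results of these data known and includes genes of skeletal muscle such as Ckm, Atp2a1 and Ryr1. Its shares beside those of all genes are therefore a description only. By temperature 25 of the 35 had fold changes above 0, with a median of 0.47, and 18 had an unadjusted p below 0.05, against 51.6% and 18.5% of all genes. Only Orai1, the pore of store-operated calcium entry, passed, which is 1 of 35 against 1.94% of all genes. Its fold change was 0.66 ± 0.17 (P-adj = 0.0924, edgeR). Its libraries lay at 19.0 to 36.7 CPM in the cooler group and 13.3 to 18.8 CPM in the warmer one. They did not overlap, as was so for 1.24% of all genes tested. Slopes on Acta1 were positive and called for 20 of 35, against 6.69% of all genes, and negative and called for none, with a median of 0.14. At equal Acta1 none passed and 3 had an unadjusted p below 0.05, a smaller share than the 12.4% of all genes, with a median fold change of 0.12.

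Among the other creatine genes, Ckm had a slope of 1.04 ± 0.14 and mean levels of 2112 ± 2939 CPM at 22°C and 261 ± 315 CPM at 29°C (SD). The difference between temperatures was 3.02 ± 1.41 on the log2 scale and did not pass (P-adj = 0.273, edgeR). Slc16a12, a creatine exporter, had a slope of 0.05 ± 0.05 (P-adj = 0.663, edgeR), and Ckmt1, the ubiquitous mitochondrial creatine kinase, was too low to test, at 0 to 6.27 CPM. Phospho1, a phosphatase of phosphocholine and phosphoethanolamine, had a slope of 0.33 ± 0.05 and a difference between temperatures of 1.61 ± 0.49 (P-adj = 0.000666 and 0.137, edgeR). Enpp1, which makes pyrophosphate, and Ank, which exports it, had called slopes of 0.24 ± 0.05 and 0.16 ± 0.04. Pm20d2, a relative of Pm20d1, also passed, with a slope of 0.15 ± 0.04 opposite in sign to that of Pm20d1, while Faah had -0.0046 ± 0.14.

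Called slopes among the calcium genes reached from shallow values to 1. Atp2a1, encoding SERCA1 of fast muscle, had a slope of 1.05 ± 0.13, whereas Atp2a3, encoding SERCA3, had 0.0017 ± 0.025. Ryr1, the skeletal muscle ryanodine receptor, had a slope of 1.04 ± 0.07, and its partners Casq1 and Hrc, which bind calcium in the reticulum, had 1.06 ± 0.07 and 1.02 ± 0.05. The inositol trisphosphate receptors Itpr1, Itpr2 and Itpr3, release channels of most cells, had slopes of 0.01 ± 0.01, -0.04 ± 0.04 and 0.07 ± 0.04, none of which passed. In the group of release channels and partners, 10 of 16 tested genes had positive called slopes. Besides those named they were Tmem38b at 0.14 ± 0.03, Jph1 at 0.58 ± 0.06, and Casq2, Tmem38a, Srl, Jph2 and Trdn above it, while the abundant Fkbp1a had -0.04 ± 0.02 and did not pass.

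Among small proteins that bind the pump, Mrln, encoding myoregulin of skeletal muscle, had a slope of 0.72 ± 0.07, whereas Pln and Arln had 0.05 ± 0.05 and -0.05 ± 0.03 and did not pass. Stim1, the calcium sensor of the reticulum, and Orai1 had shallow called slopes of 0.09 ± 0.02 and 0.10 ± 0.02. Slc25a4, the ADP/ATP carrier of heart and muscle, had 0.28 ± 0.05, while Slc25a5, its counterpart in other tissues, had -0.03 ± 0.03. Calr, the calcium buffer calreticulin, had -0.0029 ± 0.022 and Ucp2 had -0.02 ± 0.04. Ucp1, the uncoupling protein of brown and beige fat, was too low to test, at 0 to 0.368 CPM at 22°C and at 0 in all 6 libraries at 29°C. Of the other brown and beige adipocyte markers, 6 were tested. Fold changes were above 0 for 5 of these and 3 were called, against 1.94% of all genes, while Elovl3 stood at -0.03 ± 0.92. Cidea, a lipid droplet protein gene, was higher by 2.51 ± 0.40 on the log2 scale (P-adj = 0.0199, edgeR), Cox8b by 2.27 ± 0.53 and Otop1 by 2.92 ± 0.59 (P-adj = 0.0827 and 0.0596, edgeR). Cox8b also had a called slope on Acta1, at 0.35 ± 0.04 (P-adj = 0.000168, edgeR). The part of these markers in the values of the members was not tested.

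**Figure D4:**
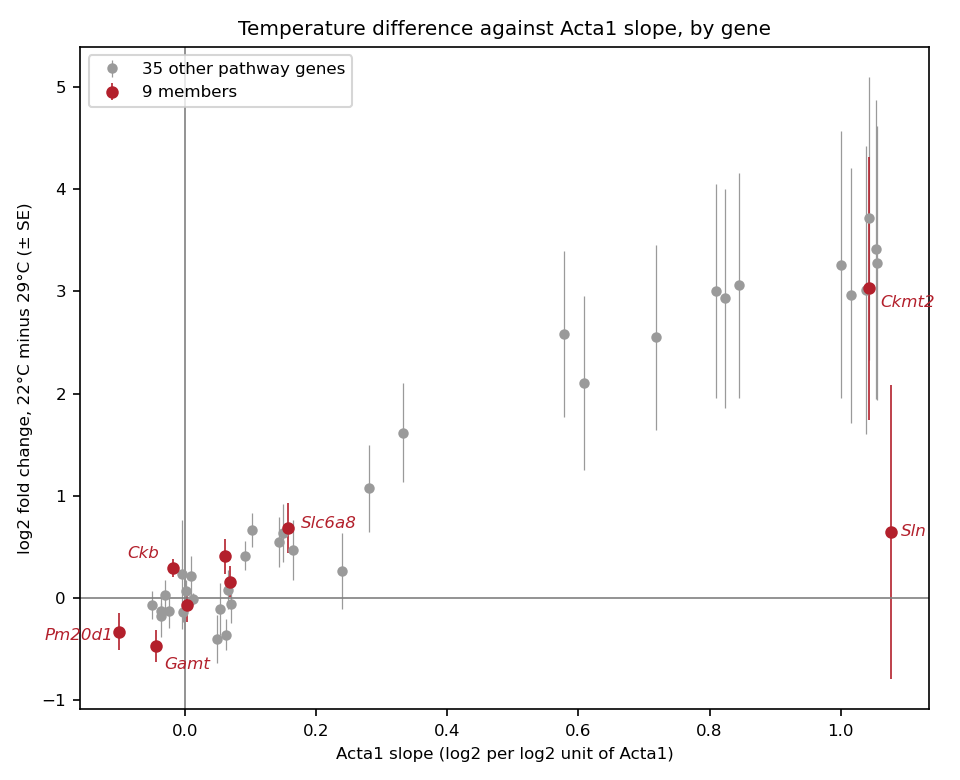
For each gene, the log2 fold change between 22°C and 29°C with its SE (vertical axis) against its slope on Acta1 (horizontal axis), for the 9 members tested (red) and 35 other pathway genes (grey). Genes with slopes near 1, such as Ckmt2, have fold changes near 3, except Sln at 0.64, and those with slopes near 0 lie near 0.

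The genes whose log2 CPM was most like that of each member over the 13 libraries differed from member to member. They are the 3 highest values of r among all genes tested, given as a description. Ckmt2 lay closest to Art1, Eef1a2 and Hrc, at r of 0.992, 0.992 and 0.991, all genes of striated muscle. Slc6a8 lay closest to Stim1, Zfp652 and Gm9821, at 0.978, 0.976 and 0.973. Sln lay closest to Hoxd9, a homeobox gene that marks position along the body, at 0.934, then to Csrp3, a muscle LIM protein gene, at 0.857 and to Gm15917 at 0.843.

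Gatm was most like Hoxc11, at an r of 0.908, and Cnp and Mbp, myelin genes, at 0.890 and 0.845. Atp2a2 was most like Col8a1, Gm10221 and Rapgef4, at 0.921, 0.891 and 0.886. Gamt was most like Hmgn2 and Hsbp1 at 0.932 each and Scp2-ps2 at 0.914. Counts of a pseudogene such as Scp2-ps2 can be shared with its parent gene. Ckb was most like Pcdhb10, Srd5a3 and Vopp1, at 0.888, 0.875 and 0.858. Pm20d1 was most like Cenpi, Tmem45b and Zeb2os, at 0.895, 0.891 and 0.875, and Alpl like Eif1ad, Nog and Limd1, at 0.881, 0.836 and 0.831. Among pairs of members, the largest values of r were -0.863 for Alpl with Pm20d1, 0.824 for Ckmt2 with Slc6a8 and -0.800 for Ckmt2 with Pm20d1. Gatm and Atp2a2 had an r of -0.749, and their extremes share a library, since 22°C replicate 1 was the lowest for Gatm and the highest for Atp2a2. All of these values share the same 13 libraries and their depth.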

How the data were processed

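Per the labels and the study's methods, reads were aligned with STAR 2.7.5a and counted per gene with featureCounts, and GRCm39 is the build listed. The strand setting and annotation version are not given in the sources used here, so reads of a gene and of an overlapping antisense gene cannot be told apart. The authors deposited raw counts per gene and regularized log2 values made from them with DESeq2, 1 column per mouse.

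The members and all gene lists were chosen with earlier results of these data known. Symbols came from GENCODE M21 by unversioned Ensembl gene identifier (34006 of 34419 genes). Its exon lengths, on GRCm38, gave CPM per kb, and no gene coordinates were taken from it. Counts were fitted with edgeR 4.0.16 in R 4.3.3 (filterByExpr, TMM, quasi-likelihood F test, Benjamini-Hochberg, P-adj below 0.1) in 3 comparisons, namely temperature, the slope on Acta1 with temperature as a term, and temperature at equal Acta1. SE was taken from the fold change and F. CPM used TMM-scaled totals, and log2 CPM a prior count of 2. The genes named beside the members were Acta1, the pathway genes that passed a fit or were the 3 most abundant of their group, and the 3 genes most like each member. Marker genes named singly (Myh4, Mylpf, Tnni2, Myl1, Mb, Myh7, Myl2, Tnni1, Tnnt1, Tnnt2, Tnni3, Myh6, Cidea, Cox8b, Otop1, Elovl3) were chosen after they were seen.

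Correlations with Acta1 used 100000 permutations over 13 libraries and exact ones within a temperature, with P-adj over the 10 members and a threshold of 0.05. Alternatives were DESeq2 1.42.0, limma 3.58.1 on the deposited log2 values, other filters, covariates and subsets, and each library left out in turn. No 2 libraries agreed within sampling noise (lowest chi-square per gene 17.1 over 78 pairs). Totals of 22356637 to 25245785 counts set a limit of 0.119 to 0.134 CPM for 3 counts, for counting error only.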

Additional observations from a re-analysis of the deposited data

How the results depend on the processing

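Members called by temperature stayed at 0 in every fit that left out 1 library and in all other settings but DESeq2, which called 3 (Ckb, Gamt, Slc6a8) and 1 at equal Acta1 (Ckb). Called genes numbered 345 by temperature, 1517 by slope and 84 at equal Acta1. They became 40 and 27 (temperature, equal Acta1) at P-adj below 0.05, 42 and 30 without a filter on low counts and 1676 and 637 with DESeq2. With the cluster of totals as a covariate 4 were called by temperature. With higher totals only, the counts were 8 by temperature, 350 by slope (1 member, Ckmt2) and 0 at equal Acta1. Leaving out 1 library gave 32 (without 29°C replicate 3) to 652 (without 22°C replicate 6) by temperature, 837 to 1594 by slope (837 without 22°C replicate 7, 839 without 22°C replicate 1) with 2 to 4 members, and 7 (without 22°C replicate 3) to 88 at equal Acta1. The cause of these shifts was not tested.

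The labels do not say that a replicate number marks a shared litter or day, and it was not taken as a pairing. Deviations of same-numbered libraries correlated at 0.513, 0.409, 0.348, 0.487, 0.0508 and 0.387, and 4 of the 6 libraries at 22°C correlated best with their own number, a hint from the data and not from the design. With the replicate block 214 genes were called by temperature, 189 by slope (1 member, Ckmt2, P-adj = 0.0693 in edgeR) and 0 at equal Acta1, where Atp2a2 was 0.065. The slope calls of Slc6a8, Sln and Pm20d1 were lost, with slopes of 0.12, 1.20 and -0.12 and P-adj in edgeR of 0.200 for Sln and close to 1 for the others.

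With the fast muscle score as a covariate 45 genes were called by temperature, with -0.12 for Ckmt2 and -1.57 for Sln, and in place of Acta1 it gave 961 by slope, with the same 4 members, and 45 at equal Acta1, with Ckmt2 at -0.12 and Atp2a2 at 0.0052. Without the 2 libraries richest in Acta1, a setting chosen after seeing the data, 423 genes were called by slope (2 members, Ckmt2 and Sln) and 186 at equal Acta1, and the temperature values were -0.014 for Atp2a2 and -0.15 for Sln.

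Other changes of sign were in values that were not called. With higher totals only, temperature gave 0.11 for Gatm, -0.011 for Atp2a2 and -4.21 for Sln, and equal Acta1 gave -0.077 for Ckmt2 and 0.038 for Gatm. With the cluster as a covariate Gatm was 0.12, Atp2a2 -0.0027 and Sln -4.19. Without a temperature term the slopes were 0.0094 for Ckb and -0.0041 for Gatm. Leaving out 1 library gave -0.16 to 0.013 for Gatm and -0.0095 to 0.21 for Atp2a2 by temperature, -0.051 to 0.046 for Atp2a2 and -1.89 to 0.048 for Sln at equal Acta1, and slopes of -0.033 to 0.041 for Gatm and -0.033 to 0.0022 for Ckb.

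Correlations with Acta1 passed P-adj below 0.05 for 3 members, for 6 with the deposited log2 values, for 0 within 29°C (n = 6) and for 3 to 5 without 1 library. The share of all genes that correlate as strongly with Acta1 was not computed, so these counts have no background to be judged by. The r of Ryr2 was -0.0023 at a prior count of 0.5, -0.195 within 22°C and -0.180 to 0.628 without 1 library. For Ckb it was -0.226 within 22°C and -0.236 within 29°C. For Gatm it was 0.012 within 22°C, 0.139 without the 2 libraries farthest from the median, and -0.400 to 0.404 without 1 library. In 3 of the 13 fits without 1 library Sln was too low to test, and it was called by slope in the other 10. Ckmt2 and Slc6a8 were called by slope in all 13. The fit of an interaction between temperature and Acta1 was also chosen after seeing the data.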
